A study of Mus musculus with 3 samples.

Results

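The serum amyloid and acute-phase genes examined here were Saa2, Saa3, Saa4, Lcn2, Hp, Orm1, Orm2, Cp, Apcs and Hpx. They were chosen by their signals on these same arrays together with their known roles, so what follows describes their values and tests nothing. All probe sets whose only gene symbol in the platform annotation is one of these names were taken. This gave 13 probe sets for 10 genes, of 8251 genes with a probe set of their own in the whole series. The arrays measured total RNA of mouse lung in 3 groups of 1 array each. They were the B16-bearing lung (B16 is a mouse melanoma line), the LLC-bearing lung (LLC is a mouse line of Lewis lung carcinoma) and normal lung as control. The first and second of these are called the B16 lung and the LLC lung from here on. The tumour cells had been placed under the skin of the back, and the series asks how lungs respond to a distant tumour before its cells reach them. The sources used here do not give mouse strain, sex, age, time after injection or the number of animals behind each RNA sample.

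The acute phase is the change in plasma proteins that follows inflammation or injury. Cytokines, above all interleukin 6 and interleukin 1, act on hepatocytes through STAT3, NF-kappa B and C/EBP factors and raise the secretion of serum amyloid A, orosomucoid, haptoglobin, hemopexin and other carriers. Some of these genes are also transcribed outside the liver. Saa3 is a serum amyloid A gene of macrophages, epithelium and fat, Lcn2 is made in airway epithelium and developing neutrophils, and Hp and Cp are transcribed in lung as well as in liver. Saa2, Saa4, Orm1, Orm2, Apcs and Hpx are made mainly by hepatocytes. The members were therefore read as 4 genes made in lung and 6 made mainly in liver.

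With 1 array per group there is no replicate error, p-value or interval, and every difference describes these arrays and not the conditions. Signals are array intensities after scaling. A floor was set at 23.6, the 40th percentile of all values. Values below it have no order, and a fold against such a value can only be given as a minimum ("at least"). As a yardstick of spread, the log2 difference between the B16 and LLC array had a robust SD (scaled median absolute deviation) of 0.68 for probe sets with signals from 25 to 50, 0.50 from 50 to 100, 0.39 from 100 to 200, 0.32 from 200 to 500 and 0.25 above 500. Noise and true differences between the tumour models both enter that spread. All 14 lung epithelium markers on the array were above the floor in all 3 samples, as the tissue label would have it, with Sftpc (surfactant protein C) at 7482, 7298 and 6206. In whole tissue, fewer cells of a type and less RNA per cell cannot be told apart.

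The sequences before the start sites are shown for Saa3 and Cp, the members made in lung that were at least 2-fold higher in the B16 lung, and for Saa2 and Hpx, the members made mainly in liver with the highest minimum differences from control in the LLC lung. Each is the 250 bases upstream of a RefSeq start site (build GRCm38.p6), 5′ to 3′ on the strand of the gene. Capitals mark matches to C/EBP (TTNNGNAA), kappa B (GGGNNNNNCC) or STAT (TTCNNNGAA) motifs on either strand, or to the TATA box (TATAAA) on the strand of the gene.
Saa3, chr7:46715677-46715926, minus strand: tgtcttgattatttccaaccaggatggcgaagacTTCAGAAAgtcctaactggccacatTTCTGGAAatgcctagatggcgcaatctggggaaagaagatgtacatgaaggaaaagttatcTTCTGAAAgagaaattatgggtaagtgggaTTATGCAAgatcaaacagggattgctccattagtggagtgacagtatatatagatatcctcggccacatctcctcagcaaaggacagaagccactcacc
Cp, the second start site, chr3:19956999-19957248, plus strand: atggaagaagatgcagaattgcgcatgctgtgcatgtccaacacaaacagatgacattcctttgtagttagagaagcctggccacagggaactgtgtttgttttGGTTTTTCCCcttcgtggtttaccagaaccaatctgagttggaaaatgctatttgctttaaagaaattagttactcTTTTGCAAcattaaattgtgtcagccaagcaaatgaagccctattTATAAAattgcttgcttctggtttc
Saa2, chr7:46751583-46751832, plus strand: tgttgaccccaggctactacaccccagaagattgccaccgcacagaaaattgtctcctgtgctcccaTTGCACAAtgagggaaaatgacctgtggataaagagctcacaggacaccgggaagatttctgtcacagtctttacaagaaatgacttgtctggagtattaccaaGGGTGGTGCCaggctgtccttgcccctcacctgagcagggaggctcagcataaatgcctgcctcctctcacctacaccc
Hpx, chr7:105600117-105600366, minus strand: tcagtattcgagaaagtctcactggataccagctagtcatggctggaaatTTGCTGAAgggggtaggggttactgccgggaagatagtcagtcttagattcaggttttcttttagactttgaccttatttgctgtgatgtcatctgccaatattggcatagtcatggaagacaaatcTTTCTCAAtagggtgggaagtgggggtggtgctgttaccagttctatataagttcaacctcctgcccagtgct

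Matches to C/EBP, kappa B and TATAAA were found in members of both kinds. Of the 8 members with an upstream sequence in the RefSeq table, 7 held the C/EBP pattern, Apcs being the exception, while 36.8% of all 32851 upstream sequences of this length hold it. Saa3 held 4 such matches, spanning positions −216 to −92 from the start, and 0.591% of all sequences hold that many. The kappa B pattern was found for Lcn2, Cp, Saa2 and Saa4, against 45.8% of all sequences. The STAT pattern was found for Apcs alone (7.02% of all), and an HNF1 pattern, GTTAAT, searched on both strands, for Cp alone (6.43%). TATAAA was found for Cp and Orm2 (7.59%). A C/EBP match and a STAT match may overlap by their letters, although no matches of different motifs overlapped in these members. A match is a description of letters and shows no binding.

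**Figure D1:**
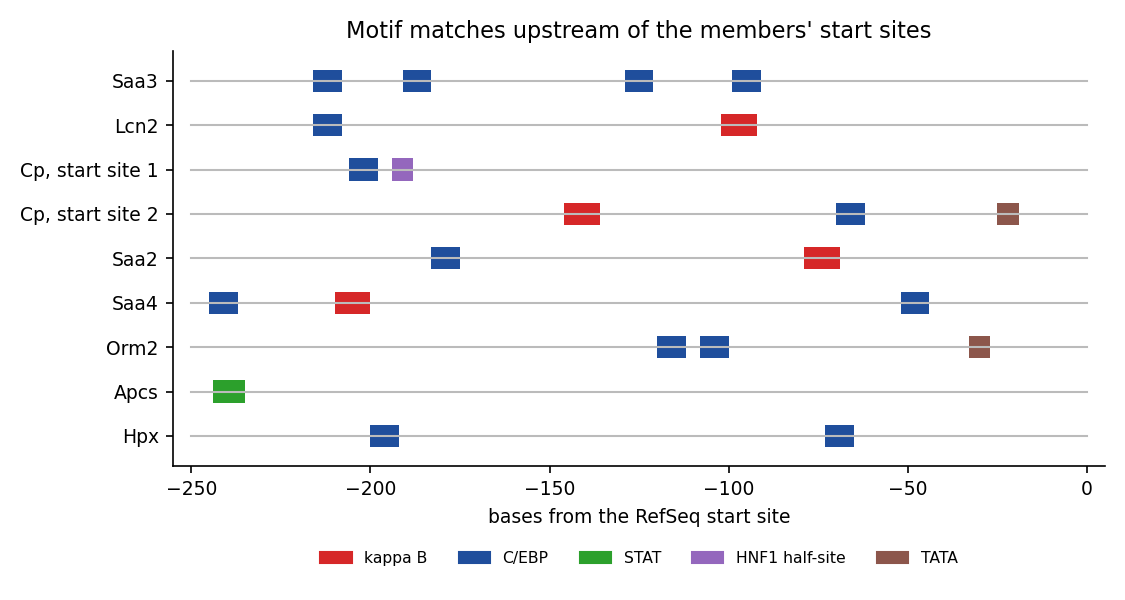
Motif matches in the 250 bases upstream of 9 RefSeq start sites of 8 members; the horizontal axis is the distance in bases from the start site and each coloured block is 1 match to the motif named in the key. Saa3 carries 4 C/EBP matches, and the kappa B match lies at different distances in Lcn2, Cp, Saa2 and Saa4.

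Saa3 had the largest difference among the members made in lung. Its signal was 239 in the B16 lung, 183 in the LLC lung and 19.2 in the control lung, the last below the floor. It was at least 10.1-fold higher than control in the B16 lung and at least 7.76-fold higher in the LLC lung (log2 differences of at least 3.34 and 2.96). Both tumour-bearing lungs were thus high and the control lung low, and the B16 lung exceeded the LLC lung by 1.31-fold (0.38), close to the spread of 0.32 at this brightness. The same investigators are known for work on Saa3 in such lungs, so its direction here is not independent evidence. With a floor at a signal of 100 the differences from control were 1.26 and 0.87.

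Saa2, an acute-phase apolipoprotein of high-density lipoprotein secreted by hepatocytes, had another pattern. Its brighter probe set read 97.0 in the LLC lung, 15.1 in the B16 lung and 8.1 in the control lung, so it was above the floor in the LLC lung alone and at least 4.11-fold higher there than in either other lung. A second probe set read 56.6 in the LLC lung, 18.4 in the B16 lung and −82.1 in the control lung, a difference of at least 2.40-fold. Both probe sets therefore placed Saa2 above the floor in the same lung. Saa1 and Saa2 are near-identical genes and the name of the second probe set marks a gene family, so these signals may stem from either gene. Saa4, which encodes the constitutive serum amyloid A of plasma, read −60.0, −59.7 and −36.8 in the B16, LLC and control lungs and was not measurable on any array.

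Cp, the copper-carrying ferroxidase ceruloplasmin, was the other gene made in lung with a difference of 2-fold. Its signal was 388 in the B16 lung, 303 in the LLC lung and 192 in the control lung. Against control it was 2.02-fold higher in the B16 lung and 1.58-fold in the LLC lung (log2 differences of 1.02 and 0.66). Both differences exceeded the spread of 0.32 at this brightness. Hp encodes haptoglobin, which captures free haemoglobin and is stored in neutrophil granules as well. It read 2869.8 in the B16 lung, 2248 in the LLC lung and 1909.6 in the control lung, higher than control by 0.59 and 0.24 on the log2 scale. The first of these differences was above the spread of 0.25 for bright probe sets and the second was not.

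Lcn2, which encodes the siderophore-binding lipocalin 2 of epithelium and neutrophil granules, differed least among the genes made in lung when the B16 lung was compared with control. Its brighter probe set read 314 in the B16 lung, 410.1 in the LLC lung and 289 in the control lung, 1.09-fold and 1.42-fold higher than control (0.12 and 0.51). The second probe set read 74.8, 86.3 and 64.5 in the same order (0.21 and 0.42). On both probe sets the LLC lung was highest and the control lung lowest, and on both the B16 difference lay within the spread at that brightness.

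The orosomucoids, acute-phase carriers of basic compounds in plasma, were highest in the LLC lung. Orm2 read 73.6 there, 45.1 in the B16 lung and 19.2 in the control lung. Against control it was at least 3.12-fold higher in the LLC lung and at least 1.91-fold in the B16 lung. Orm1 read 42.5 in the LLC lung, 3.46 in the B16 lung and 2.6 in the control lung. It was at least 1.80-fold higher than control in the LLC lung, while the other lungs were below the floor. Apcs, the pentraxin serum amyloid P, was the only gene of the liver group above the floor on all 3 arrays, with 78.6 in the LLC lung, 41.1 in the B16 lung and 32.8 in the control lung. It was 2.40-fold higher than control in the LLC lung and 1.25-fold higher in the B16 lung (1.26 and 0.32).

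Hpx encodes the haem carrier hemopexin. Its brighter probe set read 225 in the LLC lung, 30.4 in the B16 lung and 12.5 in the control lung. It was at least 9.53-fold higher than control in the LLC lung and at least 1.29-fold in the B16 lung. A second probe set read 109 in the LLC lung and lay below the floor elsewhere, with 1.68 in the B16 and 1.5 in the control lung. The LLC lung was thus alone in its high signal on both probe sets. With a floor at a signal of 100 the Hpx difference from control in the LLC lung was still 1.17.

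**Figure D2:**
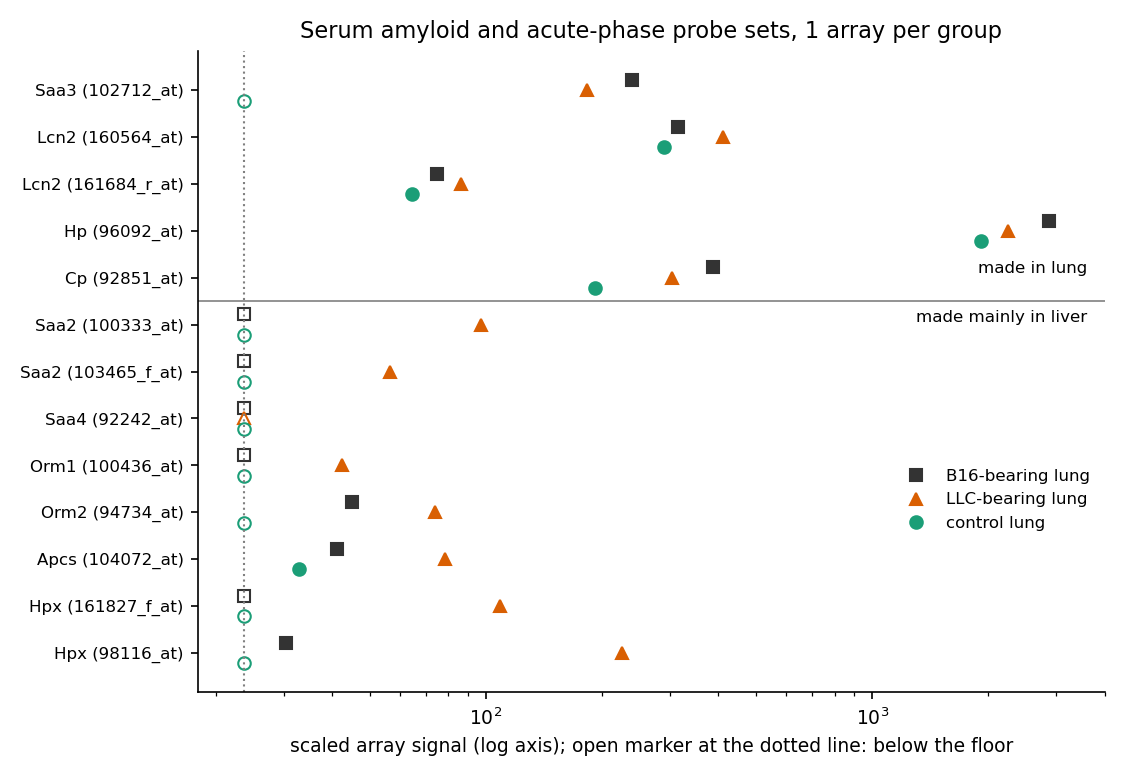
Scaled signal (log axis) of the 13 probe sets of the 10 members in the B16 (squares), LLC (triangles) and control lung (circles), 1 array each; open markers on the dotted line at 23.6 are values below the floor. In the upper block Saa3, Hp and Cp run from B16 to LLC to control, and in the lower block the LLC lung is highest for every probe set but that of Saa4.

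The members made in lung and those made mainly in liver followed different orders. Of the 4 made in lung, 3 (Saa3, Hp and Cp) were highest in the B16 lung, next in the LLC lung and lowest in the control lung, and Lcn2 was highest in the LLC lung. In these 4 genes the B16 and LLC lung differed by 0.35 to 0.39 on the log2 scale, against a spread of 0.25 to 0.32 at their brightness. Of the 6 made mainly in liver, 5 were highest in the LLC lung and Saa4 was below the floor throughout. Saa2 and Orm1 were above the floor in the LLC lung alone, so they could be highest only there. In the control lung 3 of the 4 and 1 of the 6 were above the floor, in the B16 lung 4 and 3, and in the LLC lung 4 and 5. Over all genes 68.9%, 67.4% and 69.0% were above it in the control, B16 and LLC lung. Over all members of a kind, with values below the floor set to it, the median log2 difference from control was 0.80 in the B16 and 0.58 in the LLC lung for the genes made in lung. For the genes made mainly in liver it was 0.16 and 1.45, and over all 8251 genes it was 0 in both comparisons. With a floor at a signal of 100 the liver median in the LLC lung was 0, since Hpx alone among them was then measured.

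By number, 7 of the 10 members could be measured in the B16 lung against control and 7 were higher, with 2 (Saa3 and Cp) at least 2-fold higher and 0 lower by 2-fold. Across all genes measured in that comparison, 3.23% reached 2-fold higher and 4.73% reached 2-fold lower. In the LLC lung 9 could be measured and 9 were higher, with 5 (Saa3, Saa2, Orm2, Apcs and Hpx) at least 2-fold higher and 0 lower, beside 3.95% higher and 2.98% lower over all genes. The members were picked with these comparisons in view, and Saa3, Orm2 and Hpx in both, and Saa2 and Orm1 in the LLC lung, had control signals under the floor and so could not be lower. With the floor at the 60th percentile, a signal of 71.3, the LLC differences of Saa2, Orm2 and Apcs were 0.44, 0.047 and 0.14 and no longer reached 2-fold. Both comparisons use the same control array.

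**Figure D3:**
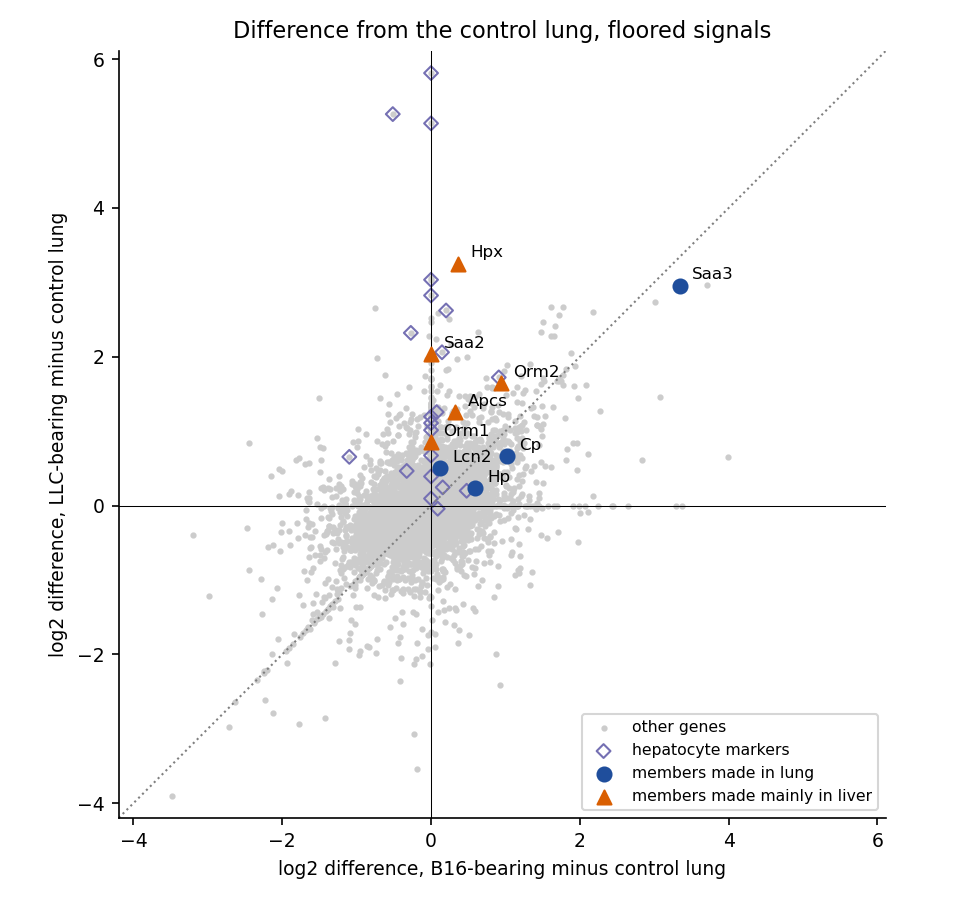
Log2 difference from the control lung in the B16 (horizontal) and LLC lung (vertical) for the 6147 genes above the floor on any array, with the same control array on both axes; circles are members made in lung, triangles members made mainly in liver and diamonds hepatocyte markers. Saa3 lies far along both axes (3.34 and 2.96), whereas Hpx and Saa2 lie along the vertical axis among hepatocyte markers.

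The tumour-bearing lungs were also compared directly. Saa3, Hp and Cp were higher in the B16 lung by 0.38, 0.35 and 0.36 on the log2 scale, and Lcn2 was lower by 0.39. The spread at their brightness was 0.25 for Hp and 0.32 for Saa3, Cp and Lcn2. Of the 14 lung epithelium markers, 11 were likewise higher in the B16 lung, with a median of 0.20. All 5 measurable genes of the liver group were lower in the B16 lung. Saa2 and Orm1 were below the floor there and measured only through the LLC lung, so they could not be higher in the B16 lung. Hpx differed 7.39-fold and Saa2 at least 4.11-fold, Apcs 1.91-fold, Orm1 at least 1.80-fold and Orm2 1.63-fold. At least 2-fold differences were 0 higher and 2 lower among the 9 measured members, beside 3.41% and 4.95% of all genes measured in this comparison.

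Hepatocyte markers stood beside the members made mainly in liver. Of 31 markers on the array, 21 were above the floor in the LLC lung, 9 in the B16 and 11 in the control lung. Over all genes 69.0%, 67.4% and 68.9% were above it in the same order. The LLC count was thus near the share over all genes, and the other 2 were below it. The summed signal of the markers with floored values was 6453, 1281 and 1348 in that order. Of 21 measured in the LLC lung 13 were at least 2-fold higher than control and 0 lower, beside 3.95% and 2.98% of all genes measured. Markers below the floor in the control lung counted as measured only through the LLC lung and so could not be lower. Among those at least 2-fold higher, these were Alb, Apoa1, Ahsg, Ambp, Fga, Fgb and Mup3. Of 11 measured in the B16 lung 7 were higher than control and 4 lower. By at least 2-fold 0 were higher and 1, Cyp2e1, was lower, beside 3.23% and 4.73%. Mup5, a major urinary protein of liver, read 1293 in the LLC lung, 8.10 in the B16 and 33.7 in the control lung. Serpina1b, an alpha-1-antitrypsin gene, read 695, 130 and 113 in the same order, Kng1 (kininogen) 161, 42.7 and 38.6, and Apoa2 (apolipoprotein A-II) 99.3, 56.6 and 30.1. The Mup5 and Serpina1b probe sets are named as family probe sets and may read related genes. Alb, named here outside the rule for other genes, read 1327 in the LLC lung, 12.8 in the B16 lung and −1.2 in the control lung. Alb, Apoa1, Fga, Fgb and Ahsg were below the floor in the B16 and control lung, whereas Serpina1b, Kng1, Apoa2, Apoc1, Cps1 and Cyp2e1 were above it in all 3. Further markers, named outside the rule, did not rise in the LLC lung by 2-fold. G6pc, Tdo2 and Rgn were above the floor in all 3 lungs and less than 2-fold from control in both tumour-bearing lungs. Ttr, Apoh, F2, Cyp3a11, Tat, Hpd, Hal, Uox, Itih1 and Hrg were below the floor in all 3. The part of liver RNA in the values of the members, those made in lung included, was not tested.

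Neutrophil markers moved with the members too, Lcn2 and Hp being granule genes. Of 17 on the array, 14 could be measured against control in each tumour-bearing lung. Of these, 13 were higher in the B16 and 14 in the LLC lung, with 4 and 6 at least 2-fold higher and 0 lower. Il1r2, and Mpo and Prtn3, named outside the rule, were below the floor in the control lung and so could not be lower. Over all genes measured, 3.23% and 3.95% were at least 2-fold higher and 4.73% and 2.98% lower. The summed signal of the neutrophil markers was 5382, 7829 and 4279.8 in the B16, LLC and control lungs. S100a8 and S100a9, the subunits of calprotectin, were 2.53-fold and 2.84-fold higher than control in the B16 lung and 3.73-fold and 5.53-fold higher in the LLC lung. Ltf, the lactoferrin of the granules that also hold lipocalin 2, was 2.01-fold and 2.79-fold higher, beside 1.09-fold and 1.42-fold for Lcn2. Il1r2, the decoy receptor of interleukin 1, was at least 2.03-fold and at least 3.70-fold higher. Between the tumour-bearing lungs 12 of the 14 were lower in the B16 lung. The 2 higher there, named outside the rule for other genes, were Camp and Elane. Camp read 300, 225 and 171 and Elane 76.5, 57.6 and 46.7 in the B16, LLC and control lungs, the order of Hp. The neutrophil markers were therefore mostly highest in the LLC lung, like Lcn2 and unlike Hp, Saa3 and Cp, which were highest in the B16 lung. Their part in the member values was not tested.

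Other genes of the acute phase were read from lists drawn up with earlier results of these data known. Among 23 further positive acute-phase genes on the array, 13 could be measured in the B16 lung and 17 in the LLC lung, with medians over the measured genes of 0.46 and 0.69. At least 2-fold higher in the B16 lung were 5: Mt1 and Mt2 (metallothioneins), Il1r2, Serpina3n (a secreted serine protease inhibitor) and Vwf (von Willebrand factor). In the LLC lung 6 were, namely Fga, Fgb and Fgg (the fibrinogen chains), Serpina1b, Plg (plasminogen) and Il1r2, and 0 were lower in either. Fga, Fgb, Fgg, Plg and Il1r2 were below the floor in the control lung and so could not be lower. Over all genes measured in the B16 and LLC lung, 3.23% and 3.95% were at least 2-fold higher and 4.73% and 2.98% lower. Mt1 read 508 in the B16 lung, 111 in the LLC lung and 118 in the control lung, and Mt2 1152, 430 and 266. Fga read 193 in the LLC lung and lay below the floor in the others. Serpina3n read 288, 207 and 122, the order of Saa3, Hp and Cp. The 2-fold lists of the 2 lungs thus had Il1r2 in common, a gene of neutrophils.

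Negative acute-phase genes, whose secretion by liver falls in inflammation, were not lower as a group in the LLC lung. Of 10 on the array, 8 could be measured there and 7 were higher, with Alb, Apoa1 and Ahsg at least 2-fold higher, beside 3.95% of all genes measured. In the B16 lung 5 could be measured, with 2 higher and 3 lower. Rbp4 (retinol-binding protein) read 89.9 in the B16 lung, 198 in the LLC lung and 104 in the control lung. Serpina6 (the corticosteroid-binding globulin) read 59.9, 80.0 and 45.6, Tfrc (the transferrin receptor) 733, 805 and 627, and Igf1 183, 195 and 256. Alb, Apoa1 and Ahsg were below the floor in the control lung and so could not be lower than it. They are also among the hepatocyte markers above, as are Fga, Fgb and Serpina1b of the positive genes. These counts are therefore not separate from that of the hepatocyte markers. Within these limits, the positive genes Fga, Fgb, Fgg, Serpina1b and Plg and the negative genes Alb, Apoa1 and Ahsg were high in the same lung. Other positive genes, named outside the rule, were not. Itih4 read 72.3, 47.0 and 72.9 and Crp 39.0, 24.3 and 9 in the B16, LLC and control lungs. Hamp and Itih3 were below the floor in all 3. The cause was not tested.

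**Figure D4:**
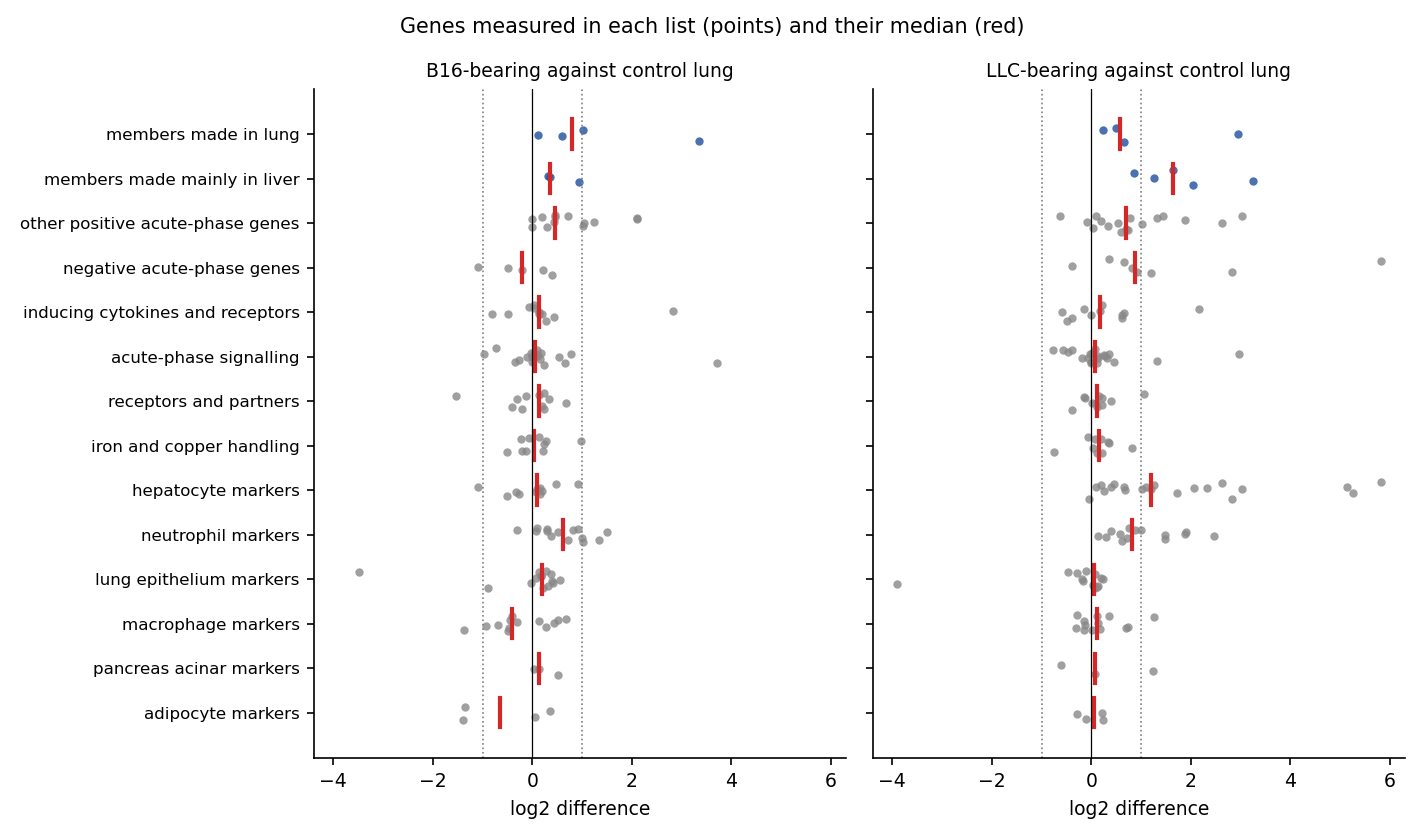
Log2 difference from control of the genes measured in each list (points, jittered vertically) with the list's median (red bar), for the B16 lung at left and the LLC lung at right; dotted lines mark 2-fold. The hepatocyte markers spread to the right in the LLC lung with the members made mainly in liver, while medians of the signalling, receptor and iron lists lie between 0.04 and 0.18 in both.

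Among inducing cytokines and receptors, 11 of 17 on the array could be measured in each lung against control, with 1 at least 2-fold higher in each and 0 lower, beside 3.23% and 3.95% higher among all genes measured in the B16 and LLC lung. In the B16 lung this was Il6ra, the interleukin 6 receptor, with 169 against 36.1 in the LLC lung and 9.7 in the control lung, a difference from control of at least 7.15-fold. In the LLC lung it was Il1b, interleukin 1 beta, with 183 against 48.9 in the B16 lung and 40.6 in the control lung, 4.50-fold higher. Il6 itself read 1.78, 4.35 and −0.6 and was not measurable. Tnfrsf1b (a tumour necrosis factor receptor) read 126, 195 and 124, and Lifr (the receptor of leukaemia inhibitory factor) 138, 185 and 242 on its brightest probe set. Weaker Lifr probe sets read 45.2, 36.3 and 40.2, or 36.9, 34.4 and 29.6, with the B16 lung highest. A further Lifr probe set was above the floor in the control lung alone (29.9).

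Among transducers and transcription factors 21 of 23 could be measured, with 1 at least 2-fold higher in the B16 lung and 2 in the LLC lung and 0 lower. Over all genes measured in the B16 and LLC lung, 3.23% and 3.95% were higher and 4.73% and 2.98% lower. Fkbp5, a glucocorticoid-induced co-chaperone, read 323, 192 and 24.6 in the B16, LLC and control lungs, again the order of Saa3. Socs3, the feedback inhibitor induced by STAT3, read 148 in the LLC lung against 62.5 in the B16 and 58.8 in the control lung, and its second probe set 103, 66.7 and 68.0. Fos read 291, 235 and 171, and Nr3c1 (the glucocorticoid receptor) 30.4, 40.4 and 59.5. Stat3, named after its values were seen, read 545, 429 and 348 on its brighter probe set and 286, 225 and 169 on the other, higher than control on both and highest in the B16 lung.

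Of 11 receptors and partners of the secreted proteins measured in each lung, 0 were at least 2-fold higher and 1 lower in the B16 lung, and 1 was higher and 0 lower in the LLC lung. Over all genes 3.23% were higher and 4.73% lower in the B16 lung and 3.95% and 2.98% in the LLC lung. Fpr2, a formyl peptide receptor that binds serum amyloid A, read 49.4 in the B16 lung against 145 and 143 in the LLC and control lung. Myd88, the adaptor of Toll-like receptors, read 66.6, 110 and 52.9 in the B16, LLC and control lungs. Lrp1, which takes up haem bound to hemopexin, read 738, 603 and 462, and Fcgr1, an Fc receptor that can bind serum amyloid P, 180, 216 and 237. Tlr2 and Tlr4, through which serum amyloid A can signal, have no probe set of their own in the annotation used. Of 13 iron and copper genes, partners of lipocalin 2, hemopexin and ceruloplasmin in metal transport, 10 could be measured and 0 were 2-fold apart in either direction. Slc11a1, the metal transporter of phagocytes, read 74.7, 66.9 and 37.8, Tfrc is given above, Slc11a2 (another metal transporter) read 584, 608 and 485, and Ireb2 (an iron regulatory protein) 82.6, 69.9 and 118.

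The genes nearest to Saa3 by Euclidean distance in the pair of log2 differences from control, over 3 arrays, were Fkbp5 (distance 0.37), Sprr2i (0.40), Krt6a (1.22), Igkv14-111 (1.52) and Ifngr1 (1.59). Nearest to Hpx were Dct (0.42), Fga (0.43), Apoa1 (0.56), Serpina1b (0.65) and Serpina1e (0.72). Of those 5, Fga, Apoa1 and the Serpina1 genes are hepatocyte genes and Dct is a gene of melanocytes. Dct read 196 in the LLC lung and was below the floor in the B16 lung (−34.1) and the control lung (−14). Fkbp5 and Sprr2i were thus the only genes within a distance of 1.22 of Saa3, that of the third nearest.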

How the data were processed

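The deposited table gives linear intensity values for 3 arrays, made from biotin-labelled cRNA on Affymetrix mouse arrays, per the labels' protocols. Negative values show that background was subtracted, and the trimmed means of the 3 columns are equal (100.1 without the lowest and highest 2%); the sources used here do not name software or summarisation. Groups came from titles and, for the control, the source name. Of 12488 probe sets, 66 controls were left out. Symbols came from GEO's platform annotation, and 10 of 10 members matched a RefSeq gene ID of the same symbol. A gene was read on its brightest probe set.

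Each array was multiplied by 1 factor (0.987, 1.01 and 1) that set the median log2 ratio to control to 0 over the brighter probe sets. Values below the 40th percentile were raised to it before log2. A gene counted as measured when above the floor on either array. Differences of 2-fold were counted; arrays carry no depth, and their number limits precision. Besides the members, up to 4 genes per list were named, those with the largest mean difference from control among genes above the floor on at least 2 arrays, and every gene of lists of 8 or fewer; further names are marked as such where they occur, or complete a count of 2-fold genes. Likeness used the 5 nearest genes. The members, lists and rules were chosen with earlier results of these data known. Steps were checked on simulated arrays. Alternatives changed the scaling, the floor and the probe set rule. Python 3.11.15 and numpy 2.4.6 were used.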

Additional observations from a re-analysis of the deposited data

Results flagged for a closer look

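In 3 lists the median over measured genes lay on opposite sides of the control lung in the tumour-bearing lungs. That of the negative acute-phase genes was −0.22 in the B16 and 0.87 in the LLC lung, that of the macrophage markers −0.40 and 0.10, and that of the adipocyte markers −0.65 and 0.062. Each rests on 1 array per group and a shared control array, and the difference between the lungs was not tested. Among macrophage markers, of which 13 of 16 were measured, Cd68 read 46.8 in the B16 lung, 155 in the LLC lung and 122 in the control lung, C1qa 128, 213 and 88.6, Chil3 288, 442.5 and 549.5, and Cd14 277, 339 and 204. On the probe sets used, Msr1, C1qb and Mertk were highest in the B16 lung among the 13, and Msr1 (179, 120 and 112) had the order of Saa3. The weaker probe sets of Msr1 and C1qb were instead highest in the LLC lung. They read 31.3, 38.9 and 20 for Msr1 and 58.5, 110 and 53 for C1qb in the B16, LLC and control lungs. Among adipocyte markers, of which 4 of 8 were measured, Adipoq read 37.0, 114 and 97.1 and Fabp4 82.8, 248 and 213 in the same order. These 2 were lower than control in the B16 lung. The other 2 measured, Lep and Lpl, were higher there by 0.053 and 0.36 on the log2 scale, so the median lies between unlike genes.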

How the results depend on the processing

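No paired analysis was possible because each group holds 1 array. The 12 counts and medians of the members by comparison stayed within 1.5 times, or within the spread of 0.41 between the tumour arrays, under 3 other scalings (all probe sets, values as deposited, quantile) and with the mean of all probe sets. Other floors gave 11 values outside these limits. With the floor at the 60th percentile, 2 members were at least 2-fold higher in the LLC lung and 1 lower in the B16 than in the LLC lung, and the liver medians in these comparisons were 0.094 and −0.094. With a floor of 100 the counts were 1 and 1 and both medians 0. With the floor at the 30th percentile, 4 members (Saa3, Cp, Orm2 and Hpx) were at least 2-fold higher in the B16 lung than in control, and the liver medians were 2.04 in the LLC lung against control and −1.54 between the tumour-bearing lungs. Each measured member difference kept its sign in all settings that measured it. For some members flooring fixed this in advance. Saa2 and Orm1 (8.1 and 2.6 in the control lung) were under even the 30th-percentile floor of 9.59, so their measured differences from control could not turn negative. The same held for Saa3, Orm2 and Hpx under the main floor and the higher ones. In the direct comparison, Saa2 and Orm1 lay under the main floor in the B16 lung and so could not be higher there. Of 72 counts of 2-fold genes in the other lists, 24 moved by over 1.5 times with a floor of 100 and 0 to 10 in each other setting; with a floor of 100, 6 hepatocyte markers were at least 2-fold higher in the LLC lung than in control, and 2 neutrophil markers in each tumour-bearing lung. Signals of Saa2, Orm1, Orm2 and Apcs were under 100 on all 3 arrays.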

Other observations

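Relatives of the members that the rule leaves out gave no signal above control in the tumour-bearing lungs. Orm3, another orosomucoid gene, read 44.3 in the control lung and lay below the floor in the B16 (17.9) and LLC lung (23.3), the reverse of Orm1 and Orm2. A probe set shared by Orm1 and Orm2 read −86.5, −26.6 and −91.1 in the B16, LLC and control lungs, and the pseudogene Saa-ps −6.42, −8.80 and −4.2, all below the floor.

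Markers of the exocrine pancreas gave no common direction. Cela2a, an elastase, read 72.1 in the B16 lung, 155 in the LLC lung and 65.2 in the control lung. Cela1, another elastase, read 145, 66.8 and 102, Cel (the bile salt lipase) 103, 106 and 100.5, and Ctrb1 (chymotrypsinogen) was below the floor throughout. Among lung epithelium markers, Cbr2 (a carbonyl reductase) read 70.0, 52.5 and 782, Foxj1 (a regulator of ciliated cells) 170.1, 122 and 116, and Pdpn (a type 1 cell protein) 126, 205 and 233. Adipocyte genes Lep and Lpl read 139.6, 125.7 and 134.6, and 548.6, 351 and 427.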
